A study of Mus musculus with 16 samples.

Results

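The inflammasome and NF-kB inflammation genes Nlrp3, Pycard, Casp1, Gsdmd, Il18, Tnf, Ccl2, Nfkb1, Rela and Nfkbia were followed in the cerebellum of Atm-/- and wild-type (WT) mice. These 10 genes, of 22911 named genes on the array, were picked by name, and every probe whose accession belongs to one of them was taken, which gave 13 probes. At least 1 probe of each of the 10 genes was well above background on all 16 arrays, and 12 of the 13 probes were measured well enough to be tested. Of the 10 genes, only Il18 changed past the adjusted threshold in any of the comparisons, between Atm-/- mice given nicotinamide riboside (NR) and Atm-/- mice given water, and that call was lost when single arrays were left out.

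RNA of cerebellar cortex was measured on 16 Agilent arrays of 1 colour, 1 mouse per array, with 4 arrays in every group (WT and Atm-/- mice, each given either vehicle or NR, here WT veh, WT NR, Atm-/- veh, Atm-/- NR). Homozygous Atm-/- mice and their WT littermates came from the strain B6;129S4-Atmtm1Bal/J, which is labelled for all groups, and were all labelled male and 3.5 months old. The NR groups drank water with 3.5 mg/ml (12 mM) NR, a precursor of the coenzyme NAD+, for 2 months from an age of 6 weeks, while the vehicle (veh) groups drank water alone. The comparisons ask what loss of Atm does in this tissue, what NR does in each genotype, and whether the NR effect depends on the genotype. The targeted gene Atm was checked first: of its 2 kept probes, the dimmer one was lower in Atm-/- veh than in WT veh by a log2 difference of -0.87 (adjusted p = 3.2e-04) and the brighter one by -0.35 (adjusted p = 0.221). Between Atm-/- NR and WT NR the dimmer probe differed by -0.76 (adjusted p = 0.0014) and the brighter one by -0.12 (adjusted p = 0.9998). Both probes were well above background on all 16 arrays, so RNA read by them was lower and not absent. On 4 arrays, namely WT NR replicates 1 and 4, replicate 3 of Atm-/- veh and replicate 4 of Atm-/- NR, no probe of a Y-linked gene was well above background while Xist was, against the label male, so values without these arrays are given where a result rests on them. Each genotype had a slide of its own, so an effect of the slide and an effect of the genotype cannot be told apart. The same holds for treatment and row, because vehicle arrays filled one row of each slide and NR arrays the other. Because whole tissue was measured, fewer cells of a type cannot be told apart from less RNA per cell.

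An inflammasome is a protein complex that forms in the cytosol when a sensor such as NLRP3 recruits the adaptor ASC (gene Pycard), which in turn activates the protease caspase-1 (Casp1). Caspase-1 cuts the precursors of the cytokines interleukin-18 (Il18) and interleukin-1 beta, and cuts gasdermin D (Gsdmd), whose fragment forms pores in the cell membrane. The transcription factor NF-kB, in its common form a dimer of p50 (made from the Nfkb1 product) and p65 (Rela), is held in the cytosol by the inhibitor IkB alpha (Nfkbia). Its targets include Tnf, which codes for a cytokine that itself activates NF-kB, Ccl2, which codes for a chemokine that attracts monocytes, Nlrp3 and Nfkbia. In the brain much of this machinery is known from microglia, and the ATM kinase can activate NF-kB after DNA damage.

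The promoters of Il18, the gene that changed, and of Nfkbia, a classic NF-kB target, are shown because they differ in the NF-kB motif. Both are the 250 bases before the RefSeq gene start in build GRCm38.p6, printed 5′ to 3′ along the gene. Capitals mark the match to the kappaB consensus, the motif that NF-kB dimers bind, searched on both strands.
Il18, chr9:50554450-50554699, + strand: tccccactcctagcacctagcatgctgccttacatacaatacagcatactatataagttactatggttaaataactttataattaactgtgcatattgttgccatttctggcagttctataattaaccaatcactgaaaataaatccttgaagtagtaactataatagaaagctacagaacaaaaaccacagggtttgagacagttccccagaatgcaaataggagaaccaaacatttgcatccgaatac
Nfkbia, chr12:55492648-55492897, - strand: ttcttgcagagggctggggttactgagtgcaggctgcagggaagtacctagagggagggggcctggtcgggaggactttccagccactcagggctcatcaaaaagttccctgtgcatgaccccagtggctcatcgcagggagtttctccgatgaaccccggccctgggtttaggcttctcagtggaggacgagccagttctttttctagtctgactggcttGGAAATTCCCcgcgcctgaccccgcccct
The Nfkbia match, GGAAATTCCC, begins 29 bases before the gene start, and the consensus reads along the opposite strand. The RefSeq table held windows of 300 bases, 250 before and 50 after the start, for 7 of the 10 genes, 8 windows in all because Nlrp3 has 2. The kappaB consensus was found in 2 of these 8 windows, of Nfkbia and Nlrp3, against 2779 of all 32851 windows (8.46%). The Nlrp3 match, GGGAACCCCC, lies 186 bases before the start and fits the motif on both strands. The core TATAAA was found in 3 of the 8 windows, of Il18, Nfkbia and Tnf, against 13.6% of all windows. In the Tnf window it begins 29 bases before the start on the strand of the gene, while the Il18 match lies 175 bases before the start on the other strand. The Il18 window held 1 CG dinucleotide and the Rela window 31, with a median of 7 over all windows. Gsdmd, Ccl2 and Nfkb1 had no window. Such a match is a description of the letters, and binding was not measured.

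**Figure D1:**
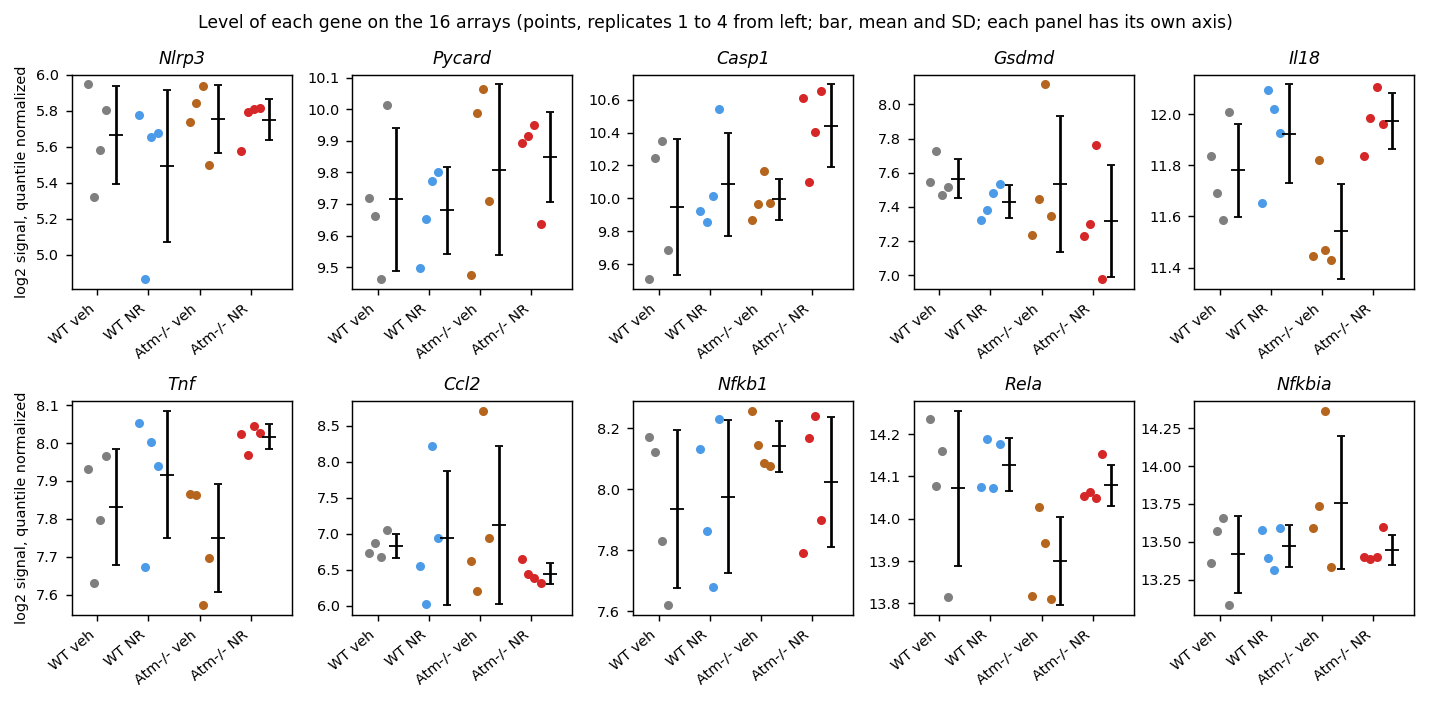
Level of the 10 genes on the 16 arrays as quantile-normalized log2 signal (y axis, its own range in each panel) for the groups on the x axis. Points are arrays, replicates 1 to 4 from the left, and bars give the mean and SD of the 4 arrays. The Atm-/- NR and Atm-/- veh points of Il18, Tnf and Rela do not overlap, and a single Atm-/- veh array stands high for Ccl2, Gsdmd and Nfkbia.

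Il18 rose under NR in Atm-/- mice. Its log2 signal (probe A_55_P2732528) was 11.45, 11.82, 11.47 and 11.43 on Atm-/- veh arrays 1 to 4 and 11.84, 11.99, 12.10 and 11.96 on Atm-/- NR arrays 1 to 4. All 4 NR arrays thus lay above all 4 vehicle arrays, although the lowest NR array and the highest vehicle array were close. On WT veh arrays 1 to 4 the same probe read 11.84, 11.69, 11.59 and 12.01, and on WT NR arrays 1 to 4 it read 11.65, 12.10, 12.02 and 11.93. Both WT groups overlapped with the Atm-/- NR arrays and with each other. The mean was 11.54 ± 0.19 (SD, n = 4) in Atm-/- veh and 11.97 ± 0.11 (SD, n = 4) in Atm-/- NR, a log2 difference of 0.43 (SE 0.12, 95% interval 0.17 to 0.69), which is 1.35-fold. The adjusted p of limma over all 37253 kept probes was 0.0430. In this comparison 9.04% of all kept probes were called, so 1 of 10 called genes is about the background share.

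The Il18 call lay close to the threshold. Without Atm-/- NR replicate 3 the difference was 0.39 with an adjusted p of 0.122, and without Atm-/- veh replicate 1 it was 0.40 with an adjusted p of 0.115. Without the 4 arrays that lacked Y-linked signal it was 0.41 with an adjusted p of 0.128, when 1.18% of all probes were called. The size thus moved little, while the call was lost.

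Casp1, Tnf and Rela also had higher means in Atm-/- NR than in Atm-/- veh, without passing the adjusted threshold. Casp1 read 9.87, 9.97, 10.17 and 9.97 on Atm-/- veh arrays 1 to 4 and 10.61, 10.10, 10.40 and 10.65 on Atm-/- NR arrays 1 to 4. Only the NR array 2 fell below the highest vehicle array. The log2 difference was 0.45 (SE 0.20, 95% interval 0.02 to 0.88, adjusted p = 0.163). The Tnf probe (A_55_P2740937) read 7.86, 7.86, 7.57 and 7.70 on the Atm-/- veh arrays and 8.02, 7.97, 8.05 and 8.03 on the Atm-/- NR arrays. The groups did not overlap, and the NR arrays were close together (SD 0.033, against 0.14 in Atm-/- veh, n = 4 each). The log2 difference of Tnf was 0.27 (SE 0.10, 95% interval 0.05 to 0.48, adjusted p = 0.108), and it was 0.17 (adjusted p = 0.310) when arrays were scaled to their 75th percentile instead. Without Atm-/- veh 3, the lowest array for Tnf, the difference was 0.21 (adjusted p = 0.240). Without the 4 arrays that lacked Y-linked signal Casp1 differed by 0.44 (adjusted p = 0.260) and Tnf by 0.20 (adjusted p = 0.322).

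Rela read 13.82, 14.03, 13.94 and 13.81 on Atm-/- veh arrays 1 to 4 and 14.05, 14.06, 14.05 and 14.15 on Atm-/- NR arrays 1 to 4, also with no overlap. The log2 difference was 0.18 (SE 0.09, 95% interval -0.01 to 0.37, adjusted p = 0.209). Without the 4 arrays that lacked Y-linked signal it was 0.17 (adjusted p = 0.406). Rela was the steadiest of the 10 genes, with an SD within groups of 0.11, below that of all but 14.6% of kept probes. A second, dimmer Rela probe differed by 0.07 (adjusted p = 0.859) and its groups overlapped.

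The counts over the 10 genes stayed near those of all probes in this comparison. Groups did not overlap for 3 of 10 genes (Il18, Tnf and Rela), against 20.2% of all kept probes. An unadjusted p under 0.05 was reached by 3 of 10 (Il18, Casp1 and Tnf), against 27.3% of all kept probes. The methods' t-test, which the study ran on z-scores, gave 4 of 10 at an unadjusted p of at most 0.05, against 26.9% of all kept probes, and 0 of 10 after Benjamini-Hochberg adjustment, against 8.55%. By sign, 5 of the 10 genes were higher and 5 lower, with a median log2 difference of 0.02 against -0.00084 over all kept probes.

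**Figure D2:**
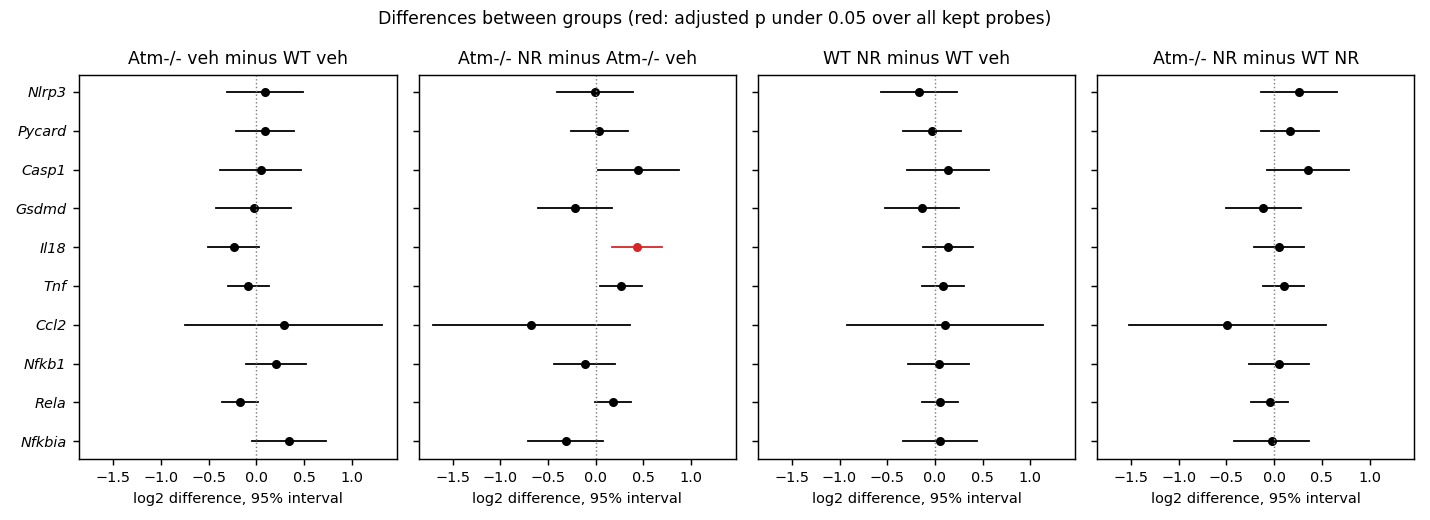
Log2 difference (x axis) of the 10 genes (y axis) in 4 comparisons, 1 per panel, with the 95% interval of the fit over 16 arrays. Red marks an adjusted p under 0.05. Il18 between Atm-/- NR and Atm-/- veh, at 0.43, is the only red point, and the Ccl2 intervals are the widest.

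Loss of Atm alone moved none of the 10 genes past the threshold. In the comparison of the vehicle groups limma called 0 of 10 genes, where 0.0537% of all kept probes were called. An unadjusted p under 0.05 was reached by 0 of 10, against 14.6% of all probes, and groups were apart for 0 of 10, against 7.6%. The methods' t-test also gave 0 of 10, against 11.7% of all probes unadjusted and 0% after adjustment. Il18 was the gene with the smallest p of the 10, at a log2 difference of -0.24 (95% interval -0.50 to 0.02, adjusted p = 0.384). Rela differed by -0.17 (95% interval -0.36 to 0.02, adjusted p = 0.387) and Nfkbia by 0.34 (95% interval -0.05 to 0.73, adjusted p = 0.405). All 3 intervals include 0 and reach far to one side, so differences within them are not excluded with 4 arrays per group.

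Il18 is the only one of the 10 genes placed within 20 Mb of Atm, the neighbourhood in which a targeted line can differ from WT by linked DNA. Casp1 is on the same chromosome but farther away. Of the 368 measured genes within 20 Mb, 9 were called between Atm-/- veh and WT veh, which is 2.45%, and none of the 16368 genes elsewhere was called. Il18 was not among the 9. Under NR in Atm-/- mice 13.3% of the near genes were called, against 11.4% of the genes elsewhere. Both groups of the NR comparison carry the same targeted allele, and the part of the neighbourhood in the Il18 values was not tested.

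In WT mice NR called no probe at all. Limma gave 0 of 10 genes and 0% of all kept probes after adjustment, 0 of 10 against 7.62% at an unadjusted p under 0.05, and 0 of 10 against 4.09% with groups apart. The methods' t-test gave 0 of 10, against 6.65% of all probes unadjusted and 0% after adjustment. Il18 was 0.14 higher in WT NR than in WT veh (95% interval -0.12 to 0.40, adjusted p = 0.842) and Casp1 0.14 higher (95% interval -0.29 to 0.56, adjusted p = 0.921). Between Atm-/- NR and WT NR limma called 0 of 10, against 0.0537% of all probes, with 0 of 10 against 5.21% unadjusted and 0 of 10 against 4% with groups apart. The methods' t-test gave 0 of 10 here too, against 6.42% of all probes unadjusted and 0.0268% after adjustment. Il18 differed by 0.05 there (95% interval -0.21 to 0.31, adjusted p = 0.9998), and Casp1 had the smallest p, at 0.36 (95% interval -0.07 to 0.78, adjusted p = 0.9998).

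Whether NR acted differently in the genotypes was tested as the difference between both NR effects. Limma called 0 of 10 genes and 0% of all kept probes, and 0 of 10 against 5.27% reached an unadjusted p under 0.05. For Il18 the NR effect was larger in Atm-/- than in WT by 0.29 (95% interval -0.08 to 0.66, adjusted p = 0.839), so the Il18 change was not shown to be particular to Atm-/- mice. A test for any difference among the 4 groups called 0 of 10, against 4.84% of all probes. Only Il18 had an unadjusted p under 0.05 in it, 1 of 10 against 23.8% (Il18 adjusted p = 0.112).

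The inflammasome genes Nlrp3 and Pycard and the NF-kB gene Nfkb1 showed no change past the threshold. Nlrp3 was the dimmest of the 10 genes, with a mean of 5.67 over 16 arrays. Nlrp3 (the sensor) ranged from 4.86 on WT NR 2 to 5.95 on WT veh 1, and its mean was 5.66 ± 0.27 in WT veh and 5.49 ± 0.42 in WT NR, against 5.76 ± 0.19 for Atm-/- veh and 5.75 ± 0.12 for Atm-/- NR (SD, n = 4 each). Pycard, the adaptor, ranged from 9.46 on WT veh 3 to 10.06 on Atm-/- veh 3, and its largest difference was 0.17 (95% interval -0.13 to 0.47, adjusted p = 0.9998) between Atm-/- NR and WT NR. Nfkb1, the p50 precursor, ranged from 7.62 on WT veh 4 to 8.26 on Atm-/- veh 1, and its largest difference was 0.21 (95% interval -0.11 to 0.52, adjusted p = 0.542) between Atm-/- veh and WT veh. The 4 groups of each of these 3 genes overlapped in every comparison.

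For Nfkbia, Gsdmd and Ccl2 the array Atm-/- veh 3 stood high. It was also the highest of all 16 arrays for Pycard (10.06) and the lowest for Tnf (7.57). The IkB alpha gene Nfkbia read 13.59, 13.73, 14.37 and 13.33 on Atm-/- veh arrays 1 to 4, against 13.36, 13.57, 13.66 and 13.08 on the WT veh arrays, and ran from 13.39 to 13.60 in Atm-/- NR. The array Atm-/- veh 3 was the highest of all 16. Without it Nfkbia was 0.14 higher in Atm-/- veh than in WT veh (adjusted p = 0.705) in place of 0.34, and its difference between Atm-/- NR and Atm-/- veh was -0.11 (adjusted p = 0.670) in place of -0.31.

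Ccl2 read 6.63, 6.20, 8.71 and 6.93 on Atm-/- veh arrays 1 to 4 and 6.56, 6.03, 8.21 and 6.94 on WT NR arrays 1 to 4. It ran from 6.67 to 7.05 on the WT veh arrays and from 6.31 to 6.64 on the Atm-/- NR arrays. Atm-/- veh 3 and WT NR 3 were thus the 2 arrays with high Ccl2, in groups that differ in both genotype and treatment. Ccl2 was 0.29 higher in Atm-/- veh than in WT veh (95% interval -0.74 to 1.32, adjusted p = 0.812), and without Atm-/- veh 3 it was -0.24 (adjusted p = 0.816), with the sign turned. Between WT NR and WT veh the difference was 0.10 (adjusted p = 0.988), and without WT NR 3 it was -0.32 (adjusted p = 0.957). Its SD within groups, 0.73, was above that of 94.4% of kept probes.

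Gsdmd read 7.24, 7.45, 8.12 and 7.35 on Atm-/- veh arrays 1 to 4, where Atm-/- veh 3 was again the highest of all 16 arrays. Between Atm-/- NR and Atm-/- veh it differed by -0.22 (95% interval -0.61 to 0.17, adjusted p = 0.463), and by -0.02 (adjusted p = 0.939) without that array. The second, dimmer Gsdmd probe, well above background on 14 of 16 arrays, had the opposite sign at 0.57 (adjusted p = 0.365), so the direction of Gsdmd is not settled by these probes.

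Markers of other cells stood high on the same array. The mean deviation of the red blood cell list (4 of 5 genes measured) from its mean over 16 arrays was 2.08 on Atm-/- veh 3 and between -0.72 and 0.30 on the other 15 arrays. On that array the list of blood monocytes and neutrophils (6 of 8 genes) stood at 0.71, within its range over Atm-/- NR arrays of -0.83 to 1.36, and on WT NR 3 at 0.80, the highest of the WT arrays. The microglia list (11 of 12 genes) was at 0.47 on Atm-/- veh 3 and 0.52 on WT veh 4. Over the groups it ran from -0.20 to 0.52 (WT veh), from -0.16 to 0.21 (WT NR), from -0.21 to 0.47 for Atm-/- veh, and from -0.21 to -0.05 for Atm-/- NR. The microglia marker P2ry12 was well above background on 16 arrays but was left out for a spot marked as an outlier, and the neutrophil markers Ngp and Retnlg were well above background on 8 and 10 arrays. The choroid plexus list (5 of 6 genes) reached 4.85 on WT veh 4, where Nfkbia and Nfkb1 were the lowest of the 16 arrays. Endothelial and pericyte markers (7 of 7 genes) stood at 0.39 on Atm-/- veh 3 and nearly as high, at 0.38, on WT veh 4. The part of these cells in the Nfkbia, Ccl2 and Gsdmd values was not tested.

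**Figure D3:**
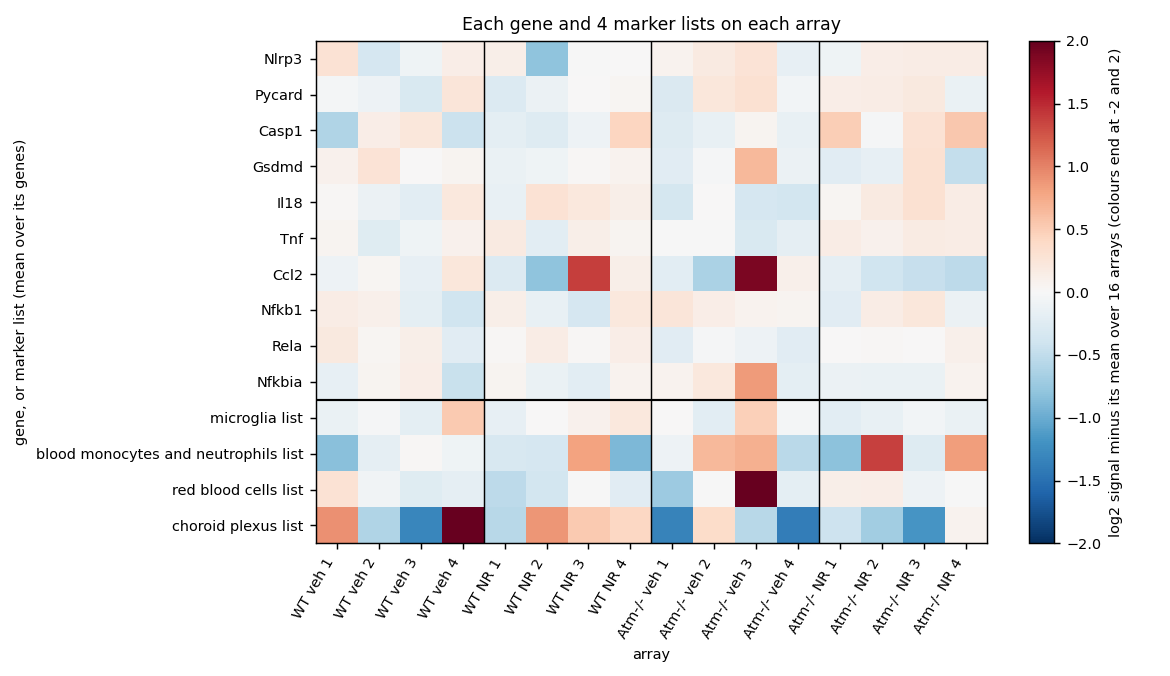
Log2 signal minus its mean over the 16 arrays (colour, ending at -2 and 2) for the 10 genes and, under the line, the mean over the genes of 4 marker lists (y axis), on each array (x axis). The column Atm-/- veh 3 is red for Ccl2, Gsdmd and Nfkbia and for the red blood cell list at 2.08, and WT NR 3 is red for Ccl2.

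Likeness over the 16 arrays was given by Pearson's r, as a description over arrays that share groups and slides. The genes most like Il18 were Armcx2 (r = 0.97), Klhl5 (r = 0.96) and Prickle1 (r = 0.96). Gsdmd was most like Flnc (r = 0.92), Gbp2 (r = 0.86), an interferon-induced GTPase gene, and Lyve1 (r = 0.86), a marker of lymphatic vessels and of macrophages at brain borders. For Ccl2 they were Supt16 (r = 0.88), Alox5ap (r = 0.86) and Rac2 (r = 0.83), the last a GTPase gene of blood cells. Nfkbia was most like Acer2 (r = 0.89), the red blood cell anion exchanger gene Slc4a1 (r = 0.89) and Gm35287 (r = 0.89). Spns1 (r = 0.93), Prpf4 (r = 0.93) and Caprin2 (r = 0.91) led for Rela, and Marchf2 (r = 0.93), Tspan9 (r = 0.90) and Prps1l3 (r = 0.90) for Nfkb1. For the remaining genes the top values were Lep (r = 0.85) for Nlrp3, A530032D15Rik (r = 0.83) for Casp1, Tnfrsf11a (r = 0.89) for Pycard and Nt5c (r = 0.84) for Tnf. No member led the list of another, and among the 10 genes the highest r was 0.60, between Gsdmd and Ccl2, and the lowest -0.52, between Il18 and Nfkbia. Gsdmd, Ccl2 and Nfkbia were each highest on the array Atm-/- veh 3, and r without that array was not computed.

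The wider pathway was read from 94 other genes in 6 lists, 93 of which were on the array and 74 of which had a kept probe. Several cytokines and receptors next to the 10 genes were not measured well enough to test. The probes of Il1a, Cxcl2, Sele, Nlrc4, Mefv and of the interleukin-18 receptor subunit Il18rap were well above background on 0 of 16 arrays. Those of Il6 and of the other receptor subunit, Il18r1, reached 1 array, and Il1b, the other main caspase-1 substrate, reached 6 (3 of Atm-/- veh, 2 of WT veh, 1 of Atm-/- NR and 0 of WT NR). The absence of a signal well above background limits the measurement and does not show that the genes are silent. Fewer probes of any kind were well above background per array in Atm-/- NR (34945 to 37817) than in Atm-/- veh (39134 to 41905). A lower count of arrays in Atm-/- NR is thus no result about a single gene.

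Under NR in Atm-/- mice 7 of the 74 pathway genes were called, 3 higher and 4 lower, which is a share near the 9.04% of all probes. Nfkbib, which codes for the inhibitor IkB beta, read 12.73, 12.57, 12.64 and 12.63 on Atm-/- veh arrays 1 to 4 and 12.31, 12.11, 12.28 and 12.24 on the Atm-/- NR arrays, and fell by 0.41 (adjusted p = 0.0124). Tnip1, whose product works with the ubiquitin-editing inhibitor A20, read 13.50, 13.58, 13.69 and 13.54 in Atm-/- veh and 13.89, 13.87, 13.85 and 13.89 in Atm-/- NR, and rose by 0.30 (adjusted p = 0.0146). Gsdme, another pore-forming gasdermin gene, ran from 12.18 to 12.33 in Atm-/- veh and from 12.62 to 12.70 in Atm-/- NR, and rose by 0.43 (adjusted p = 0.0212). For all 7 called genes, which were picked by their adjusted p, the groups were apart, against 20.2% of all kept probes. Genes picked in this way tend to have groups apart, so this adds nothing to the calls.

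Il1r1, the signalling receptor of interleukin-1, fell by 0.44 (adjusted p = 0.0290). Map3k7, which codes for the kinase TAK1 upstream of the IkB kinases, rose by 0.31 (adjusted p = 0.0428). Ikbkg, the regulatory IkB kinase subunit NEMO, fell by 0.29 (adjusted p = 0.0438), and Nfkbid, an inducible nuclear IkB protein gene, fell by 0.45 (adjusted p = 0.0444). The called genes were thus spread over activators and inhibitors, in both directions. Without Atm-/- veh replicate 3 there were 4 calls of 74 (Gsdme, Nfkbib, Tab3 and Tnip1), when 6.12% of all kept probes were called. Without the 4 arrays that lacked Y-linked signal there was 1 of 74 (Tnfaip3, the A20 gene), against 1.18% of all kept probes. At an unadjusted p under 0.05 there were 19 of 74 (25.7%, against 27.3% of all kept probes), 9 higher and 10 lower, and the median log2 difference was -0.0043.

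By list, 0 of the 15 measured cytokines, chemokines and other NF-kB targets were called under NR in Atm-/- mice, 12 were lower by sign, and the median log2 difference was -0.53 against -0.00084 over all kept probes. Ccl4, in this list, was not well above background on any Atm-/- NR array, so its difference and the median are limited by the background. With the lowest signal among probes well above background standing in for dimmer readings, the Atm-/- NR mean of Ccl4 was 5.10. Its Atm-/- veh mean was 4.97 as measured, so Ccl4 was then not lower under NR, and the median of the list was -0.40. The mean deviation of this list was -0.07, -0.20, 1.03 and -0.24 on Atm-/- veh arrays 1 to 4 and -0.48, -0.28, -0.13 and -0.41 on Atm-/- NR arrays 1 to 4. Atm-/- veh 3 again stood apart, and without it the median was -0.12 with 10 of 15 lower. Of the 24 activating kinases and adaptors 1 rose and 1 fell, of the 13 inflammasome and pyroptosis genes 1 rose, and of the 7 feedback inhibitors 1 rose. Among the 8 NF-kB subunits and inhibitors 2 fell, and among the 7 interleukin-1 family genes 1 fell.

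**Figure D4:**
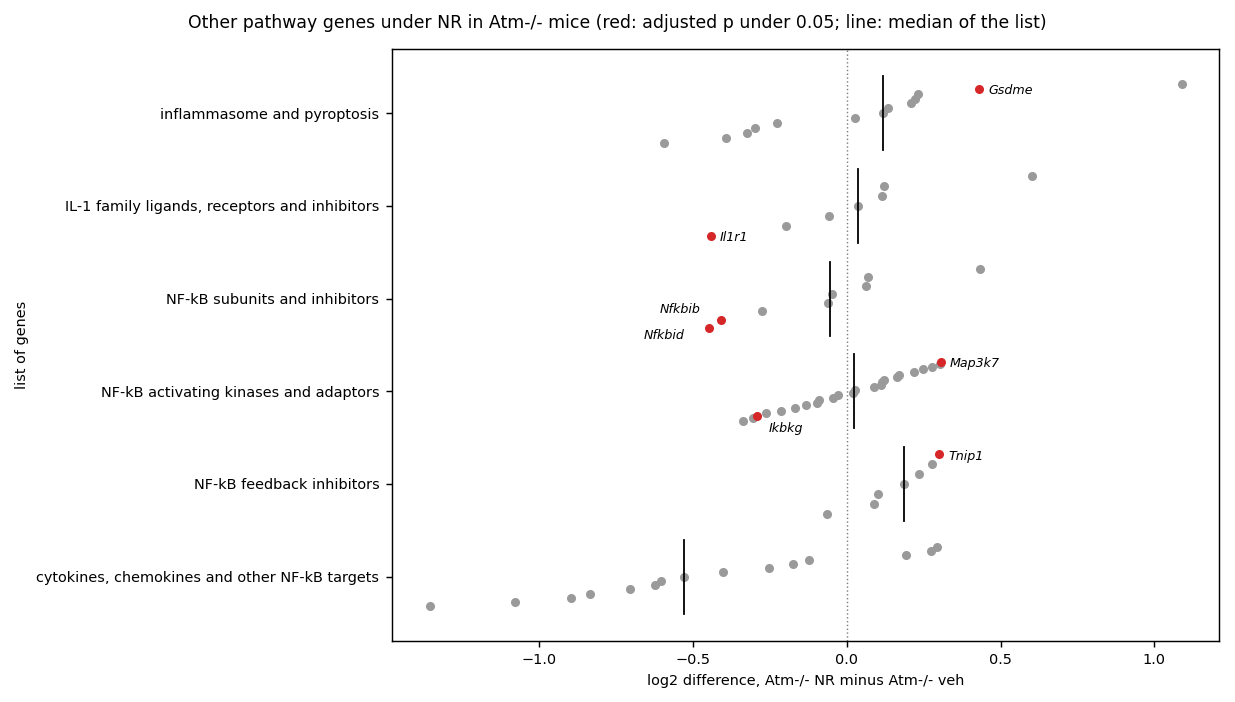
Log2 difference between Atm-/- NR and Atm-/- veh (x axis) of the 74 measured pathway genes, by list (y axis). Points are genes, red at an adjusted p under 0.05, and the line is the median of the list. The 7 red genes lie on both sides of 0, and the median of the cytokine list is at -0.53 with all readings as measured, Ccl4 among them.

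In the other comparisons 1 of the 74 pathway genes was called, between Atm-/- veh and WT veh, where 0.0537% of all kept probes were called. It is the only one of the 74 placed within 20 Mb of Atm, and so is 1 of the 9 called genes near Atm. Zc3h12c, which codes for a ribonuclease of the family that degrades inflammatory mRNAs, read 10.01, 10.02, 9.82 and 9.76 on WT veh arrays 1 to 4 and 10.61, 10.79, 10.77 and 10.49 on Atm-/- veh arrays 1 to 4. It rose by 0.76 in Atm-/- veh against WT veh (adjusted p = 0.0141) and differed by 0.64 between Atm-/- NR and WT NR (adjusted p = 0.0576). The call was lost without the 4 arrays that lacked Y-linked signal (0.73, adjusted p = 0.115), and without WT veh 3 (0.74, adjusted p = 0.0616), WT veh 4 (0.72, adjusted p = 0.0688), Atm-/- veh 1 (0.78, adjusted p = 0.0510) or Atm-/- veh 3 (0.73, adjusted p = 0.0719). The part of the neighbourhood of Atm in the Zc3h12c values was not tested. Next by p between Atm-/- veh and WT veh were the IkB kinase gene Chuk at -0.32 (adjusted p = 0.197) and the alarmin Il33 at -0.61 (adjusted p = 0.260). Tnfaip3 at -0.26 (adjusted p = 0.270) and Map3k7 at -0.23 (adjusted p = 0.271) followed. Limma called 0 of 74 under NR in WT mice, between Atm-/- NR and WT NR, and for the difference between the NR effects, with 6 (8.11%), 5 (6.76%) and 2 (2.7%) of 74 at an unadjusted p under 0.05, against 7.62%, 5.21% and 5.27% of all kept probes. The chemokine gene Ccl4 was well above background on 3 of 4 WT NR arrays and on 0 of 4 Atm-/- NR arrays, so its size of change is limited by the background. Probes of any kind well above background numbered 36402 to 40010 per WT NR array and 34945 to 37817 per Atm-/- NR array. The limma fit of the Ccl4 readings gave an adjusted p of 0.696. With the lowest signal among probes well above background standing in for dimmer Atm-/- NR readings, Ccl4 was 1.31-fold higher in WT NR. That fold was not tested, and the WT NR readings were left as measured. Ccl3, well above background on 1 of 4 Atm-/- NR arrays, differed by -1.11 (adjusted p = 0.853) between Atm-/- NR and WT NR. Both were highest on WT NR 3, the array that was also high for Ccl2. Birc3 differed by -0.72 (adjusted p = 0.558) between WT NR and WT veh. Nfkbib, Gsdme and Tnip1, called under NR in Atm-/-, had the same sign under NR in WT, at -0.22, 0.26 and 0.16 (adjusted p = 0.571, 0.586 and 0.603).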

How the data were processed

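Per the file headers, the authors deposited Agilent Feature Extraction 12.0.3.1 output for each array, with the processed spot intensity (local background subtracted, not normalized between arrays), and a table of z-scores (unit score) over all arrays. Probes were named through their accessions with RefSeq genes of GRCm38.p6, which the array was not designed on, so that coordinates are given for the printed RefSeq promoters alone. Intensities were put on the log2 scale. Probes well above background in at least 0.5 of their spots on all 4 arrays of a group were kept and quantile normalized, and spots marked as outliers were set aside, which left 37253 of 56605 probes. Well above background were 34945 to 42559 probes per array, and the number of arrays limits the precision. By group this was 37843 to 42559 in WT veh and 36402 to 40010 in WT NR. It was 39134 to 41905 in Atm-/- veh and 34945 to 37817 in Atm-/- NR, so detection was lower over the whole array in Atm-/- NR than in Atm-/- veh. The brightest kept probe stands for a gene. Group means were fitted with limma 3.58.1 in R 4.3.3 over 16 arrays with 12 residual degrees of freedom, Benjamini-Hochberg adjusted over all kept probes, called under 0.05, and tested on simulated data. Genes named in the text were drawn from all probes of the 10 genes, Atm, the pathway genes called or among the 5 smallest p of a comparison, and the 3 genes most like each of the 10 over 16 arrays. The 10 genes and all lists were chosen with earlier results of these data known. Alternatives were normexp with an offset of 50, 75th percentile scaling, the deposited z-scores, other filters, the methods' t-test and their z-ratio rule (a z-ratio past 1.5), the replicate block, and leaving out arrays.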

Additional observations from a re-analysis of the deposited data

Results flagged for a closer look

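In 5 of 48 sets of 4 arrays (12 probes in 4 groups) 1 array lay far from the other 3 by Dixon's test at 95%, which chance gives in about 1 of 20 sets. These were Il18 on Atm-/- veh 2 (11.82, higher than the other 3), Nlrp3 on WT NR 2 (4.86, lower) and on Atm-/- NR 1 (5.58, lower), Nfkbia on Atm-/- NR 4 (13.60, higher) and the brighter Rela probe on Atm-/- NR 4 (14.15, higher). Without Atm-/- veh 2 the Il18 difference under NR was 0.52 (adjusted p = 0.0203 in limma). The high Ccl2 arrays did not pass this test, nor did Atm-/- veh 3 for Nfkbia or for either Gsdmd probe.

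The second Tnf probe (A_51_P385099), which was not tested because it was well above background on 1 of 16 arrays, read 4.995 on Atm-/- NR 1 and between 2.18 and 3.04 on the other 15 arrays, when all probes were normalized together. On the WT veh arrays it was well above background on 0 of 4. The kept Tnf probe read 8.02 on the same array, within the range of 7.97 to 8.05 of Atm-/- NR. The other 15 readings of the second probe were not well above background, so the 2 probes cannot be compared.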

How the results depend on the processing

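The replicate block gave 0 of 10 genes called under NR in Atm-/- mice, in place of 1, and 0 pathway genes between Atm-/- veh and WT veh, in place of 1. Same-numbered arrays correlated between -0.33 and 0.37, over 0.1 in 6 of 24 pairs, so the numbers were not taken to pair mice. Under NR in Atm-/- mice 0 of 10 were also called with no filter on dim probes, in the 2 groups alone, without the 4 arrays lacking Y-linked signal, without Atm-/- veh 3 and WT veh 4 together (chosen after seeing the data), by the methods' t-test after adjustment and by the z-ratio rule, and 4 by that t-test unadjusted. The z-ratio rule passed 1285 of all 37253 kept probes in this comparison. Over all 26 alternatives, including those that left out 1 array, the adjusted p of Il18 ran from 0.0203 to 0.128. Il18 was called in 11 of them, and its difference never changed sign. Leaving out 1 array gave 0 to 1 of 10, with 0 without WT veh 2, WT NR 3 or 4, Atm-/- veh 1, 3 or 4, and Atm-/- NR 2, 3 or 4. The cause was not tested.

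Pathway calls under NR in Atm-/- mice ran from 1 to 10 when 1 array was left out, and were 1 without the 4 arrays, 22 by the unadjusted t-test and 1 by the z-ratio rule, in place of 7. Those between Atm-/- veh and WT veh ran from 0 to 1, and were 0 in the 2 groups alone, without the 4 arrays, without Atm-/- veh 3 and WT veh 4, and by the adjusted t-test, 7 by the unadjusted one and 2 by the z-ratio rule. Between Atm-/- NR and WT NR they were 1 with probes well above background on all 16 arrays, 6 by the unadjusted t-test and 2 by the z-ratio rule, in place of 0, and under NR in WT 5 by the unadjusted t-test.

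Of the 50 differences of the 10 genes (5 comparisons), 27 kept their sign under every alternative and 23 did not, none of them called. Without the 4 arrays the turned values were -0.014 for Casp1 and -0.24 for Ccl2 (Atm-/- veh minus WT veh), -0.011 for Casp1, -0.16 for Nfkb1 and -0.061 for Nfkbia (NR in WT), 0.088 for Gsdmd and 0.035 for Nlrp3 (NR in Atm-/-), -0.081 for Il18 and 0.039 for Nfkbia (Atm-/- NR minus WT NR), and 0.22 for Gsdmd and 0.071 for Nfkb1 (difference of the NR effects). Without Atm-/- veh 3 and WT veh 4 they were -0.10 for Casp1, -0.17 for Ccl2 and 0.021 for Tnf (Atm-/- veh minus WT veh), -0.065 for Nfkb1, -0.057 for Nfkbia, 0.065 for Pycard and -0.030 for Rela (NR in WT), 0.057 for Nlrp3 (NR in Atm-/-) and 0.13 for Gsdmd (difference of the NR effects). With 75th percentile scaling they were 0.075 for Gsdmd and 0.017 for Tnf (Atm-/- veh minus WT veh) and -0.095 for Nlrp3 (difference of the NR effects). With the mean of both probes Gsdmd gave 0.17 (NR in Atm-/-), 0.048 (NR in WT) and 0.13 (difference of the NR effects). On z-scores Nlrp3 gave 0.0023 (NR in Atm-/-).

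Leaving out 1 array turned the sign for these ranges. Between Atm-/- veh and WT veh they were -0.10 to 0.18 for Casp1, -0.24 to 0.59 for Ccl2, -0.22 to 0.071 for Gsdmd and -0.021 to 0.19 for Nlrp3. Under NR in WT they were -0.015 to 0.27 for Casp1, -0.32 to 0.41 for Ccl2, -0.065 to 0.14 for Nfkb1, -0.057 to 0.13 for Nfkbia, -0.28 to 0.040 for Nlrp3, -0.12 to 0.065 for Pycard and -0.030 to 0.11 for Rela. Under NR in Atm-/- they were -0.090 to 0.057 for Nlrp3 and -0.071 to 0.13 for Pycard. Between Atm-/- NR and WT NR they were -0.041 to 0.11 for Il18, -0.050 to 0.13 for Nfkb1 and -0.078 to 0.014 for Nfkbia. For the difference of the NR effects they were -0.23 to 0.11 for Gsdmd, -0.044 to 0.28 for Nlrp3 and -0.037 to 0.16 for Pycard.

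With 4 arrays per group, p-values set a difference between groups against the spread between arrays within groups. That spread can hold differences between mice, in the tissue taken and between arrays, and these were not told apart. The dimmer Gsdmd probe was not well above background on 2 of 16 arrays, so its values there are limited by the background.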
